A study of Mus musculus with 6 samples.

Results

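Mitotic spindle and chromosome segregation genes encode the kinases, cyclins, kinetochore proteins, motors and proteolysis factors that carry a cell through division. The group was a list of 40 genes chosen by name, of which 38 were measured among 19505 genes, each by 1 probe set. Ccnb1 and Foxm1 had no probe set under these symbols here and are not analysed here. The genes were followed in salivary glands of mouse embryos harvested at a stage written as T13 and then cultured for 72 hours, with nothing added in the 3 control arrays and with TGF-β1 in the 3 TGF-β1 arrays. The labels name no strain, no kind of salivary gland and no TGF-β1 dose. They do not state whether the 3 arrays of a group hold separate animals or cultures, so the p-values describe the spread between these samples, part of which may be technical.

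A dividing cell first accumulates cyclins that switch on Cdk1, then condenses its chromosomes, attaches them to spindle microtubules through kinetochores, and waits under the spindle assembly checkpoint until every chromosome is attached. The anaphase-promoting complex with Cdc20 then triggers the destruction of securin and cyclins, separase cuts cohesin, and the cell splits in cytokinesis. Transcripts of most of these genes are made mainly in late cell cycle, so in whole tissue they are used as markers of dividing cells. The amount of division was not measured here. Branching salivary epithelium is known to divide strongly at its end buds, and TGF-β1 is known in many epithelia as an inhibitor of division.

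Levels are given as the deposited log2 values, where a difference of 1 is a doubling, and a difference is TGF-β1 minus control. Control 3 differed from all other arrays over the whole table, with Pearson correlations across genes of 0.550 to 0.601, against 0.948 to 0.990 among the remaining 5 arrays, and its values had an interquartile range of 2.05 against 3.17 to 3.26. TGF-β1 3 lay at 0.948 to 0.953 with the 4 arrays that were most alike, which correlated at 0.974 to 0.990. The 36 measured ribosomal protein genes had a median level of 8.69 in control 3 and of 12.70 to 13.10 in the others. For this reason 3 limma fits are given: all 6 arrays unweighted, all 6 with array weights (0.0338 for control 3, 0.398 for TGF-β1 3, 1.65 to 4.52 for the rest), and the 4 arrays left without control 3 and TGF-β1 3. A gene passed at a Benjamini-Hochberg adjusted p under 0.05 over all genes, and "rose" is written only with the fit in which it passed. The weights were estimated from the same values that were tested, so the p-values of the weighted fit are too small. Control 3 and TGF-β1 3 were set aside because of their values in these same data. The p-values of the 4-array fit may therefore also be too small.

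Of the 38 genes, 37 had a positive difference over the 6 arrays, as did 7890 of all 19505 genes, and the unweighted fit did not pass any of them. In TGF-β1 1 and 2, all 38 genes were above both control 1 and control 2, an ordering that 24.4% of all genes showed. In the 4 arrays the differences ran from 0.26 for Pttg1 to 1.26 for Cdc25c, with a median of 0.69 against 0.01 over all genes. On a linear scale these are 1.20-fold to 2.40-fold. Cdc25c and Mki67 reached 1 or more, 27 genes lay between 0.5 and 1, and 9 lay under 0.5. Within these 4 arrays, controls 1 and 2 differed by at most 0.41 in any of the 38 genes (median 0.12), and TGF-β1 1 and 2 also by at most 0.41 (median 0.13). The arrays set aside were farther off. Control 3 had a median of -1.41 and a lowest value of -4.71 relative to the mean of controls 1 and 2. TGF-β1 3 ran from -1.23 to 0.86 relative to the mean of TGF-β1 1 and 2.

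The unweighted fit of all 6 arrays gave a median difference of 1.08, against -0.14 over all genes, and 0 of the 38 passed, with adjusted p between 0.776 and 0.911. That fit called 0% of all genes. At an unadjusted p under 0.05, 11 of the 38 were higher and 0 lower, beside 1.46% of all genes higher. With array weights 25 of the 38 rose and 0 fell, against 3.45% of all genes that rose and 3.44% that fell, and the median difference was 0.68. The weighted count of 25 was 7 after quantile normalization (Ccnb2, Cdc25c, Birc5, Cenpa, Knl1, Kif2c and Ube2c) and 3 after median centring (Ccnb2, Cdc25c and Birc5). It was 34 of the 37 genes kept by a filter on dim genes, and 26 with another variance prior. Leaving out control 1, control 2, TGF-β1 1 or TGF-β1 2 took it to 0 each time. Leaving out control 3 took it to 14 and leaving out TGF-β1 3 to 8. Shares of all genes passing were not counted for these fits or for the 4-array fits with 1 array left out. The falls therefore cannot be called particular to the mitotic genes. The weights were estimated anew in each of these weighted fits. Without control 1 they were 0.150 for both controls 2 and 3, and without control 2 0.145 for both controls 1 and 3. Without TGF-β1 1 or TGF-β1 2, TGF-β1 3 had the same weight as the other treated array (3.31 and 3.14). In the same fits control 1 had 10.41 and 9.17, control 2 0.0544 and 0.0753, and control 3 0.1609 and 0.1465. Without TGF-β1 3, control 2 had 0.0118 and control 3 0.116. In the 4-array fit 9 rose and 0 fell, against 1.14% and 1.45% of all genes, and 36 were higher at an unadjusted p under 0.05, beside 8.26% of all genes. The 9 were Ccnb2, Cdc25c, Plk1, Mki67, Birc5, Cenpa, Knl1, Bub1 and Kif20a, and 8 of them, all but Plk1, also rose with array weights. With control 3 alone left out, the unweighted limma fit passed 0 of the 38, with a lowest adjusted p of 0.231. The 4-array count was 7 without control 1, 2 without control 2, 1 without TGF-β1 1 and 0 without TGF-β1 2, fits in which the lone array of a group is assumed to vary like the other group.

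**Figure D1:**
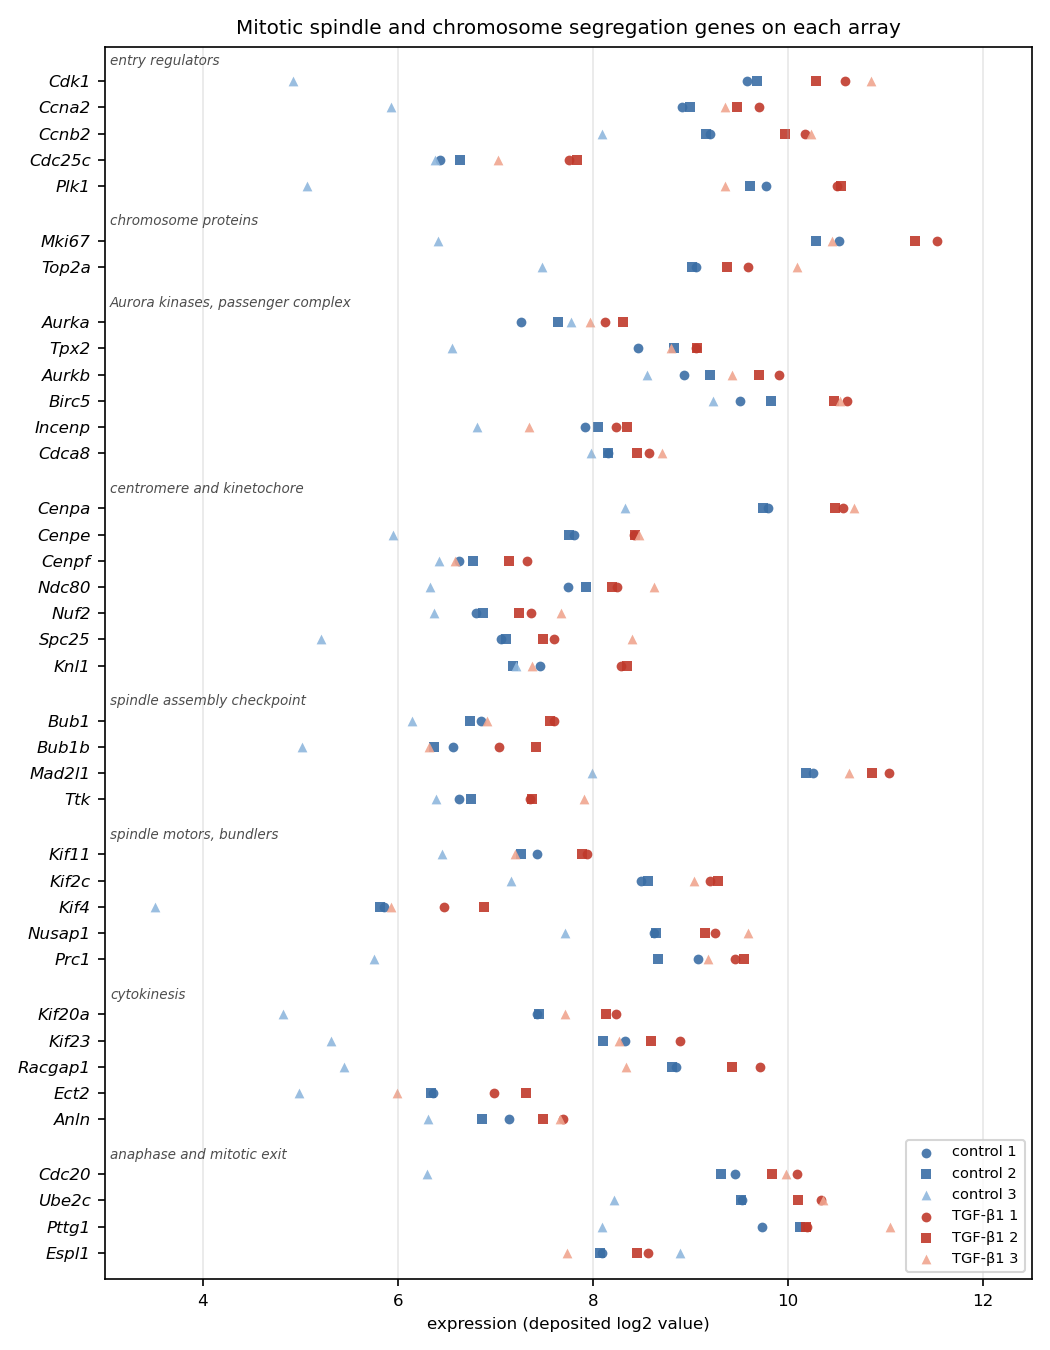
Deposited log2 value of each of the 38 genes on each of the 6 arrays, grouped by role (blue, controls; red, TGF-β1; lighter triangles, control 3 and TGF-β1 3). Circles and squares of the 2 colours separate in every row, with red to the right, while the light blue triangles lie far to the left in most rows, at 4.93 for Cdk1.

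Without setting any array aside, 26 of the 38 genes had every TGF-β1 value above every control value, where 5.8% of all genes did. The count was again 26 without control 3, where 12.8% of all genes were ordered in this way. The 12 genes with overlap were Plk1, Mki67, Tpx2, Incenp, Cenpf, Knl1, Bub1b, Kif11, Kif23, Racgap1, Ect2 and Espl1. In all 12 TGF-β1 3 was under control 1 or control 2, and in Espl1 control 3 was also above every TGF-β1 array. Other lists, described below, held this ordering over 6 arrays too: 18 of 36 ribosomal protein genes, 18 of 47 genes of DNA replication and 33 of 73 other mitotic genes. It held in 6 of 41 constitutive mitotic genes and 2 of 31 G1, E2F and DREAM genes. Without control 3 the counts of these 5 lists, in the same order, were 18, 23, 37, 6 and 4.

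**Figure D2:**
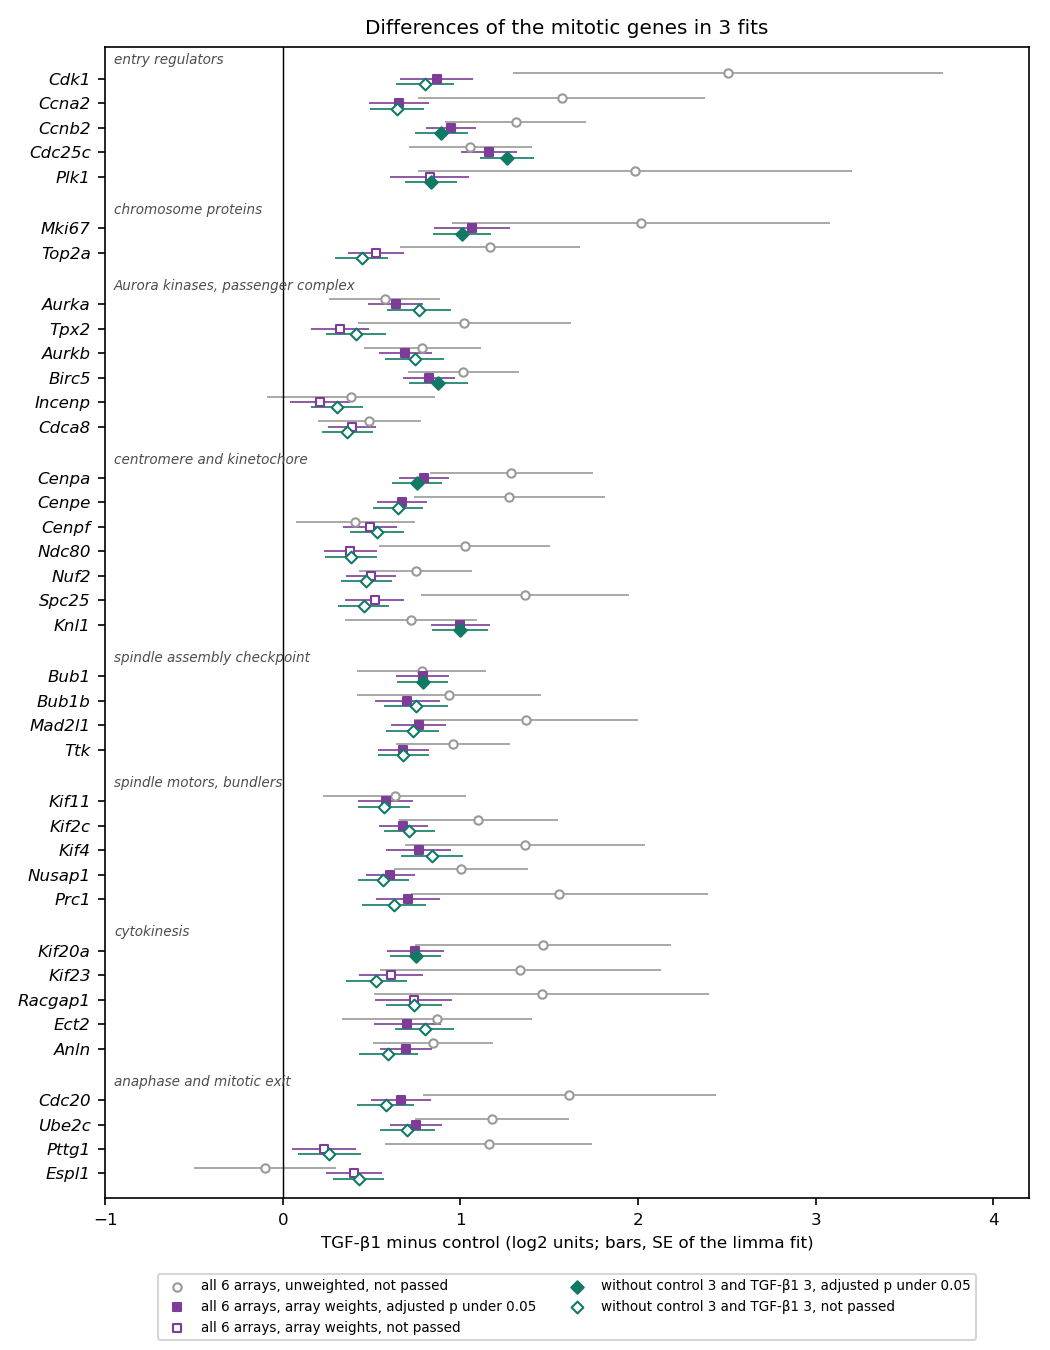
TGF-β1 minus control (log2 units, bars are SE of the limma fit) for each gene in the unweighted fit (grey circles), the array-weighted fit (purple squares) and the 4-array fit (green diamonds); filled symbols passed at an adjusted p under 0.05. The grey estimates reach 2.51 for Cdk1 with wide bars, and the purple and green ones mostly lie between 0.3 and 1.1 with narrow bars.

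Promoters of these genes are shown because genes of late cell cycle often carry a CHR element, TTTGAA or TTTAAA, which is bound by the DREAM and MuvB complexes, and CCAAT boxes, which are bound by NF-Y. RefSeq promoter windows (GRCm38.p6) were found for 32 of the measured genes, in 34 windows. TTTGAA or TTTAAA, on either strand, lay within 100 bases before the start in 10 of 34 windows (29.4%) and in 9.71% of all 32851 windows of the table. Within 250 bases these shares were 47.1% and 25.2%. CCAAT, on either strand, lay within 250 bases in 73.5% of the windows of the mitotic genes and in 33.8% of all windows, and CHR letters within 100 bases together with CCAAT within 250 bases lay in 29.4% and 3.33%. Bases after the start were not searched, so CHR letters or CCAAT there are not counted. A match is a description of letters and not a bound site. The 10 genes with the CHR letters within 100 bases had a median 4-array difference of 0.66 (0.43 to 1.01), and the 22 without them one of 0.70 (0.26 to 0.998), ranges that overlap almost wholly. The 100 bases before the start are printed 5′ to 3′ on the gene's strand for 6 genes with the CHR letters and for Ccnb2 and Knl1, which have none of them there; capitals mark the CHR letters and the CCAAT box, each read on the gene's strand or on the other one. The windows are chr5:30666786-30666885 on the plus strand for Cenpa, chr2:164769829-164769928 plus for Ube2c, chr7:135716380-135716479 minus for Mki67, chr10:69352913-69353012 minus for Cdk1, chr7:80294376-80294475 plus for Prc1, chr4:118437344-118437443 minus for Cdc20, chr9:70421555-70421654 minus for Ccnb2 and chr2:119047019-119047118 plus for Knl1.
Cenpa: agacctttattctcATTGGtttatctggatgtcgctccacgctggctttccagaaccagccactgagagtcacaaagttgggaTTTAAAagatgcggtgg
Ube2c: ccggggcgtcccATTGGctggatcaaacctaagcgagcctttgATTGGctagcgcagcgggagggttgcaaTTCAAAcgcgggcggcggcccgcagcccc
Mki67: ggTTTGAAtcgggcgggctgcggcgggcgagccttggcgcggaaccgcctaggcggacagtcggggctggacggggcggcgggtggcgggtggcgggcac
Cdk1: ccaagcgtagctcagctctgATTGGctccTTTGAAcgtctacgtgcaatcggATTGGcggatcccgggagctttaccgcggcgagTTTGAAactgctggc
Prc1: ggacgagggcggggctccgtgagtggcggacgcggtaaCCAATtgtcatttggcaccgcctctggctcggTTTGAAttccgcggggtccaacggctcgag
Cdc20: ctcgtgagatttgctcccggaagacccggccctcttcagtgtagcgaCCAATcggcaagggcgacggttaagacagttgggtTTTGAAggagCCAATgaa
Ccnb2: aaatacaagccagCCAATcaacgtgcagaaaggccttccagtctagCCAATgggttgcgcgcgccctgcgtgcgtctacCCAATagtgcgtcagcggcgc
Knl1: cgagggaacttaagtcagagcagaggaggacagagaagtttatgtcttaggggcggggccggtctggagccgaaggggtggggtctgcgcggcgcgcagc
Cdk1 holds TTTGAA at 2 places, Ccnb2 holds 3 CCAAT boxes and no CHR letters, and Knl1 holds neither motif in this window.

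Among the regulators of entry into mitosis, 4 of 5 rose with array weights and 3 in the 4 arrays, with a 4-array median of 0.84. Ccnb2, which encodes cyclin B2, an activating partner of Cdk1, was at 9.20, 9.15 and 8.09 in controls 1 to 3 and at 10.17, 9.97 and 10.24 in TGF-β1 1 to 3. The groups did not overlap, and TGF-β1 3 was as high as the other treated arrays. Ccnb2 rose by 0.89 ± 0.15 (SE, adjusted p = 0.0349) in the 4 arrays and by 0.95 ± 0.14 (adjusted p = 0.00281) with weights, against 1.31 ± 0.40 (adjusted p = 0.776) unweighted. Cdc25c, the phosphatase that activates Cdk1, was at 6.44, 6.63 and 6.38 in the controls and 7.75, 7.84 and 7.02 in those with TGF-β1. Here control 3 lay beside the other controls, and TGF-β1 3 was the lowest treated array. Cdc25c had the largest 4-array difference of the group, a rise of 1.26 ± 0.15 (adjusted p = 0.0172), and its unweighted difference was of like size, 1.05 ± 0.35 (adjusted p = 0.776).

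Cdk1, the kinase that drives mitosis, was at 9.58, 9.68 and 4.93 in the controls and 10.58, 10.28 and 10.85 in those with TGF-β1. Control 3 stood at -4.71 relative to the mean of controls 1 and 2, the largest such gap among the 38 genes. The unweighted difference of 2.51 ± 1.21 rested on that array: without control 3 it was 0.94. Cdk1 rose with weights by 0.87 ± 0.21 (adjusted p = 0.0276) and differed by 0.80 ± 0.16 (adjusted p = 0.0554) in the 4 arrays, where it did not pass. Ccna2, cyclin A2, which works in S phase and early mitosis, was at 8.91, 8.99 and 5.93 against 9.70, 9.48 and 9.35. It too was lowest by far in control 3, and it rose with weights alone (0.66 ± 0.17, adjusted p = 0.0390). Plk1, a kinase of centrosome maturation and mitotic entry, was at 9.77, 9.61 and 5.07 in the controls and 10.51, 10.54 and 9.35 in those with TGF-β1. TGF-β1 3 was below controls 1 and 2, so the groups overlapped. Plk1 rose in the 4 arrays by 0.84 ± 0.15 (adjusted p = 0.0387) and narrowly missed the threshold with weights (adjusted p = 0.0504); without control 3 its difference was 0.44.

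Of the 2 chromosome proteins, Mki67 rose in both fits and Top2a in neither. Mki67, a protein coating mitotic chromosomes and a common marker of cycling cells, was at 10.52, 10.29 and 6.42 in the controls and 11.53, 11.30 and 10.45 in those with TGF-β1. TGF-β1 3 lay between controls 2 and 1, and control 3 was far below all others. The rise was 1.01 ± 0.17 (adjusted p = 0.0326) in the 4 arrays and 1.06 ± 0.21 (adjusted p = 0.0117) with weights. Top2a, the topoisomerase that untangles sister chromatids, was at 9.05, 9.02 and 7.47 against 9.59, 9.37 and 10.09. Its highest value was that of TGF-β1 3, the reverse of Mki67, and its 4-array difference was 0.44 ± 0.15 (adjusted p = 0.197).

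Aurora kinases and the chromosomal passenger complex, which corrects wrong microtubule attachments, gave a 4-array median of 0.58, with 3 of 6 rising with weights and Birc5 alone in the 4 arrays. Birc5, survivin, which targets the complex to centromeres, was at 9.51, 9.82 and 9.23 in the controls and 10.61, 10.47 and 10.53 in those with TGF-β1. The 3 treated arrays were close together and above every control, and control 3 was near the other controls. Birc5 rose by 0.87 ± 0.17 (adjusted p = 0.0468) in the 4 arrays and by 0.82 ± 0.15 (adjusted p = 0.00647) with weights, and differed by 1.02 ± 0.31 unweighted. Aurkb, the kinase of the complex, was at 8.93, 9.20 and 8.55 against 9.91, 9.70 and 9.43, with no overlap; it rose with weights (0.69 ± 0.15, adjusted p = 0.0188) and not in the 4 arrays (adjusted p = 0.0706). Aurka, the kinase of spindle poles, was at 7.26, 7.64 and 7.77 against 8.12, 8.31 and 7.97. It was the rare gene with control 3 above the other controls, and it also rose with weights (0.63 ± 0.15, adjusted p = 0.0298).

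The remaining members of this set had smaller differences. Cdca8, borealin, a scaffold of the complex, was at 8.15, 8.15 and 7.97 against 8.58, 8.45 and 8.71, which separates the groups by a small step. Its 4-array difference was 0.36 ± 0.14 (adjusted p = 0.265). Incenp, the scaffold that activates Aurkb, differed by 0.31 ± 0.15 (adjusted p = 0.363) in the 4 arrays and was lower in TGF-β1 3 (7.34) than in controls 1 and 2 (7.92 and 8.05). Tpx2, the activator of Aurka on spindle microtubules, differed by 0.41 ± 0.17 (adjusted p = 0.285), with TGF-β1 3 at 8.80 between controls 1 and 2 (8.47 and 8.83). Subunits of 1 complex thus ranged from 0.31 to 0.87 in the same 4 arrays, and differences between subunits were not tested.

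Of 7 centromere and kinetochore genes, 3 rose with weights and 2 in the 4 arrays, with a 4-array median of 0.53. Cenpa, the histone variant that marks centromeres, was at 9.80, 9.75 and 8.33 in the controls against 10.56, 10.48 and 10.68 with TGF-β1. The groups were apart by more than the spread of the treated arrays, and TGF-β1 3 was the highest. It rose by 0.75 ± 0.14 (adjusted p = 0.0454) in the 4 arrays and by 0.79 ± 0.14 (adjusted p = 0.00614) with weights. Knl1, the outer kinetochore scaffold for checkpoint proteins, was at 7.46, 7.18 and 7.21 against 8.29, 8.35 and 7.38. Control 3 sat with the other controls, but TGF-β1 3 did too, below control 1. Knl1 rose by 0.998 ± 0.158 (adjusted p = 0.0301) in the 4 arrays and by 1.00 ± 0.17 (adjusted p = 0.00493) with weights; unweighted the difference was 0.72 ± 0.37.

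Cenpe, the kinetochore motor that gathers chromosomes at the spindle equator, was at 7.80, 7.75 and 5.94 against 8.42, 8.43 and 8.48. The treated arrays were nearly equal, and Cenpe rose with weights (0.67 ± 0.14, adjusted p = 0.0155) and not in the 4 arrays (adjusted p = 0.0638). Subunits of the microtubule-binding Ndc80 complex differed by less than Cenpa or Knl1 in the 4 arrays: Ndc80 by 0.38 ± 0.15, Nuf2 by 0.47 ± 0.15 and Spc25 by 0.45 ± 0.14. None of them passed in the unweighted, the weighted or the 4-array fit. Nuf2 was at 6.80, 6.87 and 6.37 against 7.37, 7.24 and 7.67. In all of Ndc80, Nuf2 and Spc25 the highest of the 6 values was that of TGF-β1 3, with Spc25 at 8.40 there against 7.60 and 7.48 in TGF-β1 1 and 2. Cenpf, a large protein of the outer kinetochore, differed by 0.53 ± 0.15 (adjusted p = 0.133), with TGF-β1 3 at 6.58, below controls 1 and 2.

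All 4 genes of the spindle assembly checkpoint rose with array weights, and Bub1 in the 4 arrays as well, with a 4-array median of 0.74. Bub1, a checkpoint kinase, was at 6.85, 6.73 and 6.15 in the controls and 7.60, 7.56 and 6.91 in those with TGF-β1. TGF-β1 3 was above control 1 by little and well under the other treated arrays. Bub1 rose by 0.79 ± 0.14 (adjusted p = 0.0422) in the 4 arrays and by 0.79 ± 0.15 (adjusted p = 0.00933) with weights. Mad2l1, MAD2, which restrains Cdc20, was at 10.25, 10.18 and 7.98 against 11.03, 10.86 and 10.63, with no overlap (4-array difference 0.73 ± 0.15, adjusted p = 0.0545). Ttk, the MPS1 kinase that starts checkpoint signalling, was at 6.62, 6.75 and 6.39 against 7.36, 7.37 and 7.91, and TGF-β1 3 was the highest array (0.68 ± 0.14, adjusted p = 0.0606). Bub1b, BUBR1, a subunit of the inhibitor that holds back Cdc20, was at 6.57, 6.37 and 5.02 against 7.03, 7.41 and 6.32. Here TGF-β1 3 was under controls 1 and 2, and the 4-array difference was 0.75 ± 0.18 (adjusted p = 0.0832). With weights the 4 genes rose by 0.68 to 0.79, but 0 of the 4 passed in the weighted limma fit after quantile normalization or after median centring.

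The 5 spindle motors and microtubule bundlers all rose with array weights, by 0.58 to 0.77, and 0 passed in the 4-array limma fit, where all 5 were higher at an unadjusted p under 0.05 (median 0.63). After quantile normalization the weighted fit passed Kif2c alone, and after median centring 0 of the 5. Kif2c, a kinesin that takes microtubule ends apart at centromeres, was at 8.49, 8.57 and 7.16 in the controls and 9.20, 9.28 and 9.04 in those with TGF-β1. The groups did not overlap, and the 4-array difference was 0.71 ± 0.14 (adjusted p = 0.0537). Kif11, the motor that pushes spindle poles apart, was at 7.42, 7.26 and 6.45 against 7.94, 7.88 and 7.19, with TGF-β1 3 below controls 1 and 2 (0.57 ± 0.15, adjusted p = 0.10). Kif4, a chromosome-bound kinesin that also acts in the central spindle, was at 5.86, 5.81 and 3.51 against 6.47, 6.88 and 5.93. TGF-β1 3 passed control 1 by little, and control 3 was at percentile 0.10 of its array.

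Nusap1, which ties microtubules to each other near chromosomes, was at 8.63, 8.64 and 7.71 against 9.25, 9.15 and 9.59. TGF-β1 3 was the highest array and the groups were clearly apart, with a 4-array difference of 0.57 ± 0.14 (adjusted p = 0.0948). Prc1, which bundles the antiparallel microtubules of the central spindle, was at 9.08, 8.67 and 5.75 against 9.45, 9.55 and 9.18. Controls 1 and 2 differed by 0.41, the widest gap between them among the 38 genes. The 4-array difference of Prc1 was 0.63 ± 0.18 (adjusted p = 0.130), and its unweighted difference of 1.56 ± 0.84 came with control 3 at -3.12 relative to the mean of controls 1 and 2.

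Among 5 genes of cytokinesis, 3 rose with weights and Kif20a in the 4 arrays, with a 4-array median of 0.74. Kif20a, the kinesin that carries passenger proteins to the midzone, was at 7.42, 7.44 and 4.82 in the controls and 8.24, 8.13 and 7.72 in those with TGF-β1. Every treated array was above every control, by less in TGF-β1 3. It rose by 0.75 ± 0.14 (adjusted p = 0.0468) in the 4 arrays and by 0.75 ± 0.16 (adjusted p = 0.0171) with weights. Anln, anillin, a scaffold of the contractile ring, was at 7.13, 6.86 and 6.31 against 7.69, 7.49 and 7.66, and rose with weights (0.69 ± 0.15, adjusted p = 0.0157). Its treated arrays lay close together and above the controls.

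Racgap1, Ect2 and Kif23 were lower in TGF-β1 3 than in TGF-β1 1 and 2, an ordering that 22 of the 38 genes showed. Racgap1, the GTPase-activating subunit of centralspindlin, was at 8.85, 8.81 and 5.44 against 9.71, 9.43 and 8.34. TGF-β1 3 lay under controls 1 and 2 and at -1.23 relative to the mean of the other treated arrays, the largest gap below it of the 38 genes. Ect2, the exchange factor that activates RhoA at the midzone, was at 6.36, 6.34 and 4.98 against 6.98, 7.31 and 5.99, again with TGF-β1 3 under controls 1 and 2. Ect2 rose with weights (0.70 ± 0.19, adjusted p = 0.0484) and Racgap1 did not (0.74 ± 0.22, adjusted p = 0.0676). Kif23, the motor subunit of centralspindlin, differed by 0.53 ± 0.17 in the 4 arrays (adjusted p = 0.172), with TGF-β1 3 at 8.27 between controls 2 and 1.

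Of the 4 genes of anaphase and mitotic exit, Cdc20 and Ube2c rose with weights and 0 passed in the 4-array limma fit, where 3 were higher at an unadjusted p under 0.05 (median 0.50). Ube2c, the ubiquitin-conjugating enzyme of the anaphase-promoting complex, was at 9.52, 9.52 and 8.22 in the controls and 10.34, 10.10 and 10.35 in those with TGF-β1. The groups were apart, and the 4-array difference was 0.70 ± 0.15 (adjusted p = 0.0658). Cdc20, the activator of that complex, was at 9.46, 9.31 and 6.30 against 10.09, 9.83 and 9.98, also without overlap (0.58 ± 0.16, adjusted p = 0.121). Securin and separase, the lock and the protease of sister separation, had the smallest differences here. Pttg1, securin, was at 9.73, 10.12 and 8.09 against 10.20, 10.18 and 11.04. TGF-β1 1 and 2 exceeded control 2 by under 0.1, and the difference was 0.26 ± 0.17 (adjusted p = 0.525) in the 4 arrays.

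Espl1, separase, was the single gene of the 38 with a negative unweighted difference, -0.10 ± 0.40 (adjusted p = 0.911). It was at 8.09, 8.07 and 8.89 in the controls and 8.57, 8.45 and 7.73 in those with TGF-β1. Control 3 was the highest array and TGF-β1 3 the lowest. In the 4 arrays the difference was 0.43 ± 0.14 (adjusted p = 0.189) and with weights 0.40 ± 0.16 (adjusted p = 0.167), and without control 3 it was 0.17.

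The array labelled TGF-β1 3 did not lie on 1 side of the other arrays for all 38 genes. It was above TGF-β1 1 and 2 in 13 of the 38 genes, between them in 3 and below both in 22. Against controls 1 and 2 it was above both in 26, between them in 4 and below both in 8. Relative to the mean of these controls it ranged from -0.65 (Incenp) to 1.31 (Spc25), with a median of 0.45, where TGF-β1 1 and 2 stood at 0.67 and 0.64. Spc25, Ttk, Cdk1, Pttg1, Ccnb2 and Top2a were each more than 1 above the controls in this array. Incenp, Racgap1, Ect2, Espl1, Plk1, Bub1b, Kif11 and Cenpf were below both controls. These orderings were not counted over all genes, where the median of TGF-β1 3 relative to the mean of controls 1 and 2 was -0.01. TGF-β1 3 also stood apart over the whole table, as given above, so its split is not shown to be particular to the mitotic genes.

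**Figure D3:**
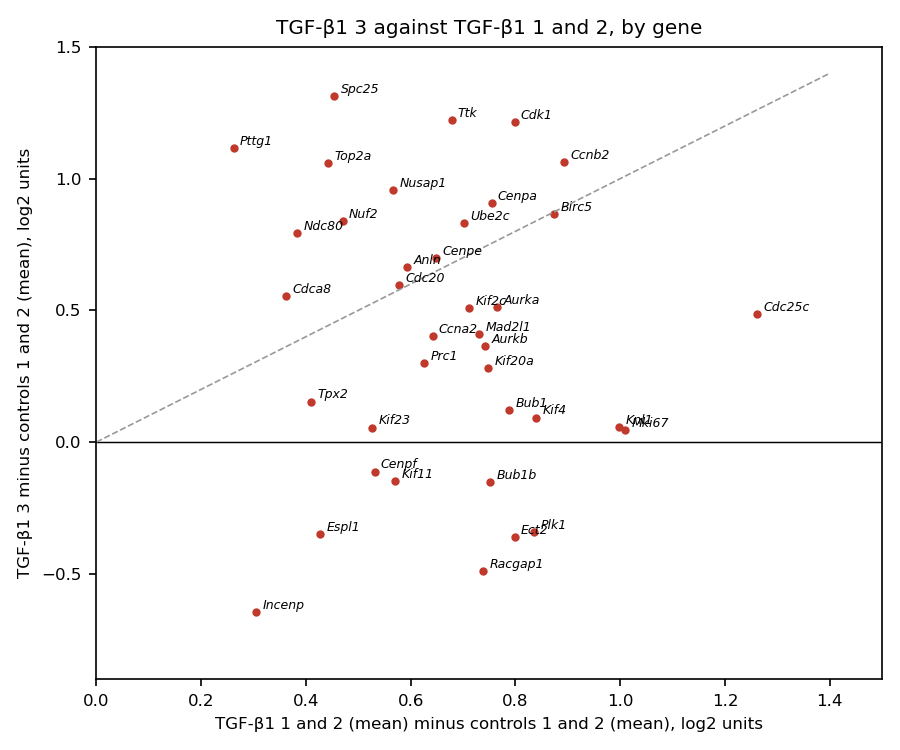
For each of the 38 genes, TGF-β1 3 minus the mean of controls 1 and 2 (vertical, log2 units) against the mean of TGF-β1 1 and 2 minus the same controls (horizontal, log2 units); the dashed line marks equality, and both axes share their controls. Horizontal values are all positive, from 0.26 to 1.26, while vertical values run from -0.65 for Incenp to 1.31 for Spc25.

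Control 3 was below both other controls in 35 genes, between them in 1 and above them in Aurka and Espl1. The gap to their mean had a median of -1.41 and exceeded 1 in 24 genes. Ranks compare the same probe sets between arrays and are not amounts of different transcripts. The median percentile of the 38 genes among all genes of an array was 72.7 and 71.2 in controls 1 and 2, 38.7 in control 3 and 79.7, 76.9 and 76.5 in TGF-β1 1 to 3. Over the 38 genes the values of control 3 correlated with the mean of controls 1 and 2 at r = 0.466, against 0.989 between controls 1 and 2 and 0.993 between TGF-β1 1 and 2; these are descriptions over 38 genes that share their arrays. The low values of control 3 were not particular to mitotic genes, since its median gap was -3.92 for ribosomal protein genes, -2.03 for markers of gland epithelium and -2.59 for markers of mesenchyme. It was above controls 1 and 2 in the median for all genes (0.45) and for markers of acinar cells (0.23), endothelium (0.65), blood and immune cells (0.57), neurons and glia (0.45) and skeletal muscle (1.35). The part of this array in the differences is therefore given by the fits without it.

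**Figure D4:**
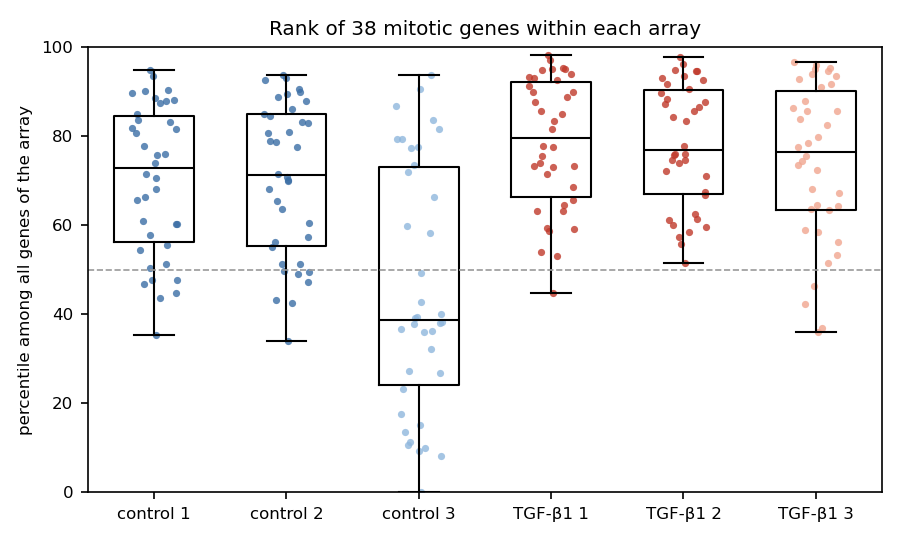
Percentile of each of the 38 genes among the 19505 genes of each array (points; boxes show the quartiles and the median, whiskers the lowest and highest gene, and the dashed line is the 50th percentile). The box of control 3 lies far under the others, with its median at 38.7, and the 3 TGF-β1 boxes have medians of 76.5 to 79.7 above the 71.2 and 72.7 of controls 1 and 2.

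Other genes of the cell cycle were taken from further lists. Their counts stand beside 3.45% of all genes that rose and 3.44% that fell with weights, and 1.14% and 1.45% in the 4 arrays. Of 73 other mitotic genes regulated in the cell cycle (of 75 listed), 28 rose with weights and 7 in the 4 arrays, 0 fell in either, and the 4-array median was 0.52, with 67 of 73 differences positive, beside 9961 of all 19505 genes (51.1%) in these arrays. Kif20b, a kinesin of cytokinesis, was at 8.28, 8.13 and 6.24 against 9.17, 9.07 and 8.92, and rose by 0.91 ± 0.15 (adjusted p = 0.0324) in the 4 arrays. Its groups did not overlap. Parpbp, a regulator of recombination, rose by 0.98 ± 0.16 (adjusted p = 0.0318) in the 4 arrays, and Cip2a, an inhibitor of protein phosphatase 2A, and Cdca3, a trigger of mitotic entry, rose with weights by 1.04 ± 0.17 and 0.83 ± 0.15.

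Machinery of mitosis that cells make at all times differed little. The share of all genes that rose was 3.45% with weights and 1.14% in the 4 arrays. Of 41 genes of cohesin, the anaphase-promoting complex and other constitutive parts (of 42 listed), 1 rose with weights, 0 passed in the 4-array limma fit (6 at an unadjusted p under 0.05, all higher), and the 4-array median was 0.07, against 0.69 for the 38 genes. The riser was Fzr1, CDH1, the activator of the anaphase-promoting complex after mitosis, at 9.48, 9.46 and 9.35 in the controls and 10.12, 10.05 and 9.64 in those with TGF-β1 (0.61 ± 0.14 with weights, adjusted p = 0.0232). Smc1a, a cohesin subunit, differed by 0.46 ± 0.15 with weights (adjusted p = 0.0975), and the kinetochore proteins Nsl1 and Pmf1 by 0.53 ± 0.20 and 0.44 ± 0.14, without passing.

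The S phase list stood between these. Of 47 genes of DNA replication (of 49 listed), 5 rose with weights (Gmnn, Cdc6, Rfc3, Pole and Prim1) and Gmnn alone in the 4 arrays, 0 fell, and all 47 had a positive 4-array difference with a median of 0.32, where 51.1% of all genes were positive. Gmnn, geminin, which keeps origins from firing again, was at 6.84, 6.79 and 6.02 in the controls and 7.55, 7.53 and 8.32 in those with TGF-β1, and rose by 0.73 ± 0.14 (adjusted p = 0.0489) in the 4 arrays. Cdc6, a loader of the replicative helicase, Rfc3, a clamp loader subunit, and Pole, a replicative polymerase, rose with weights by 0.71 ± 0.14, 0.57 ± 0.14 and 0.66 ± 0.17. Pcna, the sliding clamp, was at 10.77, 10.88 and 5.80 against 11.14, 11.02 and 11.16, and differed by 0.26 ± 0.15 (adjusted p = 0.443) in the 4 arrays. No test was made between this list and the mitotic genes.

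Among 31 G1 cyclins, CDK inhibitors and factors of the E2F and DREAM families (of 33 listed), 1 rose and 3 fell with weights. In the 4 arrays 1 rose (E2f8, a late-cycle E2F repressor) and 2 fell, with a median of 0.07. Over all genes 3.45% rose and 3.44% fell with weights, and 1.14% and 1.45% in the 4 arrays. Cdkn1a, the p21 inhibitor of cyclin-dependent kinases, was at 11.03, 11.62 and 6.72 in the controls and 8.32, 9.46 and 10.95 in those with TGF-β1. TGF-β1 1 and 2 were far under controls 1 and 2, and TGF-β1 3 was near them. It fell by 2.43 ± 0.37 (adjusted p = 0.0274) in the 4 arrays, against an unweighted difference of -0.21 ± 1.32. Btg2, an antiproliferative p53 target, was at 10.41, 10.27 and 6.84 against 9.37, 9.58 and 8.68, and fell by 0.86 ± 0.16 (adjusted p = 0.0407) in the 4 arrays. Ccnd2, cyclin D2, fell with weights by 0.77 ± 0.18 (adjusted p = 0.0259), and Cdkn1b, the p27 inhibitor, rose with weights by 0.62 ± 0.14 (adjusted p = 0.0190). Ccnd1 had no probe set under this symbol here.

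**Figure D5:**
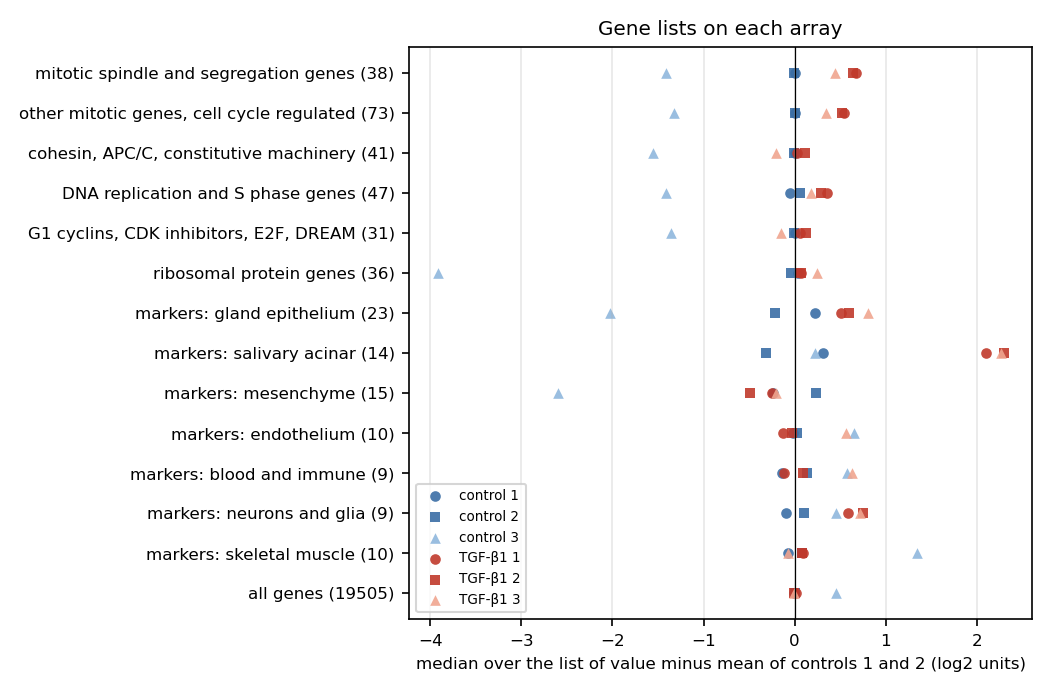
For each list (number of measured genes in brackets), the median over its genes of the value minus the mean of controls 1 and 2 on each array (log2 units; symbols as in the plot of single genes). For the 38 mitotic genes TGF-β1 1 to 3 are at 0.67, 0.64 and 0.45, for constitutive machinery at 0.02, 0.11 and -0.21, and control 3 is far left for most lists, at -3.92 for ribosomal protein genes; because the reference is their own mean, controls 1 and 2 mirror each other.

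Markers of several cell types also changed in this comparison, and their counts stand beside the same shares of all genes. Bulk RNA cannot tell fewer cells of a type from less RNA per cell. Of 23 markers of gland epithelium, 8 rose with weights and 4 in the 4 arrays (Cldn3, Elf5, Prom1 and Sox10), 0 fell, and their summed level (log2 of the sum of linear values) was 14.82 and 14.37 in controls 1 and 2, 12.35 in control 3 and 15.01 to 15.32 with TGF-β1. Of the 23 differences in the 4 arrays 16 were positive, and the keratin genes Krt5 (-0.59 ± 0.14), Krt14 (-0.77 ± 0.18) and Krt7 (-0.62 ± 0.26) were lower at an unadjusted p under 0.05 without passing, as were Krt5 and Krt14 with weights. Epcam, an epithelial adhesion protein, was at 9.63, 8.93 and 6.40 against 10.11, 10.10 and 10.27. Cdh1, also of this list, was at 12.45, 11.95 and 8.30 against 12.83, 12.80 and 11.63, with TGF-β1 3 below controls 1 and 2. Cdh1 differed by 0.61 ± 0.19 (adjusted p = 0.164) in the 4 arrays and did not pass with weights (adjusted p = 0.104). Controls 1 and 2 thus differed by more in these markers than in the mitotic genes, whose summed level was 13.94 and 13.95 there, 12.43 in control 3 and 14.52 to 14.70 with TGF-β1. Of 14 acinar markers (of 17 listed), 11 rose with weights and 9 in the 4 arrays, with summed levels of 11.32 to 12.27 in the controls and 14.71 to 14.90 with TGF-β1. Aqp5, the water channel of acinar cells, was at 8.33, 8.25 and 9.12 against 9.38, 9.33 and 9.40.

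Of 15 mesenchyme markers (of 16 listed), 0 rose, 3 fell with weights (Fgf10, Prrx1 and Twist1) and Fgf10 in the 4 arrays, with summed levels of 14.16, 14.46 and 11.43 in the controls and 13.74 to 14.41 with TGF-β1. Col1a1, a collagen chain of mesenchyme, differed by -0.20 ± 0.21 (adjusted p = 0.712) in the 4 arrays. Of 10 endothelial markers 1, the receptor gene Kdr, fell in either fit, with Pecam1 at 4.83, 5.04 and 6.75 against 4.80, 5.01 and 5.78. Of 9 markers of neurons and glia 5 rose with weights (Tubb3, Stmn2, Elavl4, Sox2 and Ret) and Ret in the 4 arrays, with summed levels of 9.53 to 10.17 in the controls and 10.16 to 10.55 with TGF-β1. Of 9 blood and immune markers 0 passed in the weighted limma fit (2 lower at an unadjusted p under 0.05) or in the 4 arrays (0 at that p), with summed levels of 10.08 to 10.55 and 9.87 to 10.92. Ptprc, among the blood and immune markers, was at 6.13, 6.40 and 8.39 against 6.37, 6.69 and 6.89. Of 10 skeletal muscle markers 0 passed in either limma fit (1 lower at an unadjusted p under 0.05 in each), with summed levels of 9.47 to 10.47 and 9.41 to 10.05. RMA values carry no zero, so no marker is at 0. The part of cell makeup in the difference of the mitotic genes was not tested.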

How the data were processed

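Total RNA from 6 samples, 3 control and 3 with TGF-β1, was hybridised to Affymetrix arrays from 6 µg, per the labels' protocols. Each probe set has 1 deposited log2 value per array, computed by the authors; the submitters' processing notes name RMA, and its version and the annotation build are not given in the sources used. They were used without further scaling. Of 22206 probe sets, 19572 had 1 symbol in the platform annotation, 0 had more and 2634 had no name here; all 19572 Entrez identifiers stood in the RefSeq gene table (GRCm38.p6). The probe set of highest mean stood for a gene, giving 19505 genes. Arrays carry no read depth, and their number limits the precision.

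Groups, taken from the labels, were tested in limma 3.58.1 under R 4.3.3 (lmFit, eBayes, two-sided, Benjamini-Hochberg over all genes): 6 arrays unweighted as the main fit, with arrayWeights (whose estimation ended short of its tolerance), and without control 3 and TGF-β1 3. The fits were run on simulated data, where control 3 and TGF-β1 3 had only a wider random spread. Control 3 had no narrowed range of values there, unlike the deposited array. Recovery of the planted differences was required of the 4-array fit alone. The members and gene lists, and the rule for named genes (up to 4 members per role and 4 genes per list of smallest p with array weights, plus fixed symbols and markers), were chosen with earlier results of these data known. Plk1, Tpx2, Incenp, Cenpf, Ndc80, Spc25 and Kif23 are named beyond that rule. Prim1, E2f8 and all markers but Epcam, Cdh1, Aqp5, Col1a1, Pecam1 and Ptprc are also beyond it, named for their p-values. Alternatives were other scalings, a filter on dim genes, another variance prior, the replicate number as a block, other thresholds and leaving out each array; the last was extended to the weighted and 4-array fits after seeing the data.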

Additional observations from a re-analysis of the deposited data

How the results depend on the processing

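In the unweighted fit of 6 arrays 0 mitotic genes passed under every scaling, filter, prior, block, threshold and left-out array; 25 passed in the weighted fit, 9 in the 4 arrays without control 3 and TGF-β1 3, and 14 with control 3 left out and array weights. The weighted count of 25 was 7 with quantile normalization, 3 with median centring and 7 at an adjusted p under 0.01. With 1 array left out it was 0 to 14. It was 34 of the 37 genes kept with dim genes left out, 26 with a trended and robust prior and 32 at an adjusted p under 0.1. The 4-array count of 9 was 18 with a trended and robust prior, 23 at an adjusted p under 0.1, 0 at an adjusted p under 0.01 and 0 to 7 with 1 array left out. With the replicate number as a block, which is no pairing by the labels or by the correlations of same-numbered deviations (-0.07, -0.01 and -0.05), the counts were 0 unweighted, 28 weighted and 16 in the 4 arrays. The cause was not tested, except that leaving arrays out leaves fewer samples and, in the weighted fit, gives other weights. The share of all genes passing was not counted for these alternatives. Over 569 alternatives for single genes, 563 kept their direction and 6 did not: Espl1, -0.10 in the main fit, was 0.40 in the weighted fit, 0.43 in the 4 arrays, 0.40 with control 3 left out and array weights, and -0.26 to 0.17 with 1 array left out, and Incenp, 0.38 in the main fit, was -0.011 without control 3 and up to 0.70 without TGF-β1 3. The median difference ranged from 0.59 without control 3 to 1.37 without control 2, and genes without overlap from 23 with quantile normalization to 38 in the 4 arrays. No probe set's background is given, so low values such as that of Kif4 in control 3 (3.51) have no detection limit beside them.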
